A study of Homo sapiens with 20 samples.

Results

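The genes of glycolysis and of the hypoxia response were followed in colorectal cancer cells in which POLR1D had been silenced. Their 36 members were chosen by name as 16 glycolytic enzymes, 2 transporters of glucose and lactate, 3 regulators of glycolytic flux, 11 other targets of the hypoxia-inducible factors (HIF), 3 HIF subunits and VHL. All 36 were found among the 36346 gene names measured, and all 36 reached a value of 10 in 4 or more libraries of each line, so that none was lost to the filter on low values. The members were split by role, because the question was whether the enzymes of the pathway and the other HIF targets behaved alike.

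HT29 and SW480, both established cell lines of colorectal cancer, were harvested for RNA sequencing 72 h after transfection. The controls of each line received a scrambled siRNA (SCR), and the silenced cells received siPOLR1D-2 or siPOLR1D-3, siRNAs against POLR1D, a shared subunit of RNA polymerases I and III. HT29 had 4 SCR libraries and 2 libraries for each siRNA, and SW480 had 6 SCR libraries and 3 for each siRNA. No culture, clone or date is given for the libraries of a group, so the p values measure the spread between libraries, which may be technical. No low-oxygen arm is among the samples.

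Glycolysis splits glucose into pyruvate in a chain of enzyme steps, and lactate dehydrogenase and the lactate exporter carry the product out of the cell when it is not burnt in mitochondria. Many of these enzymes are induced in low oxygen by HIF, a dimer of HIF1A or EPAS1 with ARNT. When oxygen is present, the prolyl hydroxylases EGLN1 and EGLN3 mark the alpha subunits and VHL leads them to degradation, so HIF activity is set largely by protein stability and not by the mRNA of its subunits. HIF binds a short core, ACGTG or GCGTG, in the hypoxia response elements of its targets, and glycolytic enzymes are commonly raised in colorectal cancer.

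The core was searched on both strands in the 250 bases before the RefSeq gene start (build GRCh38.p14), for which 33 of the 36 members had an entry. VHL, NDRG1 and BNIP3L had none. Of all 35116 promoters of this length, 43.2% held at least 1 match. A match was found in 10 of 16 glycolytic enzymes and in 8 of 9 other HIF targets, a position being counted on either strand so that CACGTG gives 2 matches. A match is a run of letters and not a measured binding site. The 4 promoters below are shown because they belong to the members with the lowest adjusted p among those with an entry (SLC16A3 and PDK1), to an enzyme with 3 matches (PGK1) and to a HIF target with 1 match just before its start (CA9). They lie on the plus strand at chr17:82228185-82228434, chr2:172555123-172555372, chrX:78103998-78104247 and chr9:35673678-35673927, are written 5′ to 3′, and have matches to the core in capitals. The first pair hold no such letters in this window.
SLC16A3: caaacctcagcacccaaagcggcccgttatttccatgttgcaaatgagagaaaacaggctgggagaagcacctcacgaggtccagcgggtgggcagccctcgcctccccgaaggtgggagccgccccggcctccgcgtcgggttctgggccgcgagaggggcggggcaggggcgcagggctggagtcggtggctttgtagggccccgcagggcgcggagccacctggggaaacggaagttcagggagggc
PDK1: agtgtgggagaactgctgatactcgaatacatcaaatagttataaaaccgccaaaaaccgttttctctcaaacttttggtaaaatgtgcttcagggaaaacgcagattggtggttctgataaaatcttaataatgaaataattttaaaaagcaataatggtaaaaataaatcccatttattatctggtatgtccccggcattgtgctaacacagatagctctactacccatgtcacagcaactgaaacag
PGK1: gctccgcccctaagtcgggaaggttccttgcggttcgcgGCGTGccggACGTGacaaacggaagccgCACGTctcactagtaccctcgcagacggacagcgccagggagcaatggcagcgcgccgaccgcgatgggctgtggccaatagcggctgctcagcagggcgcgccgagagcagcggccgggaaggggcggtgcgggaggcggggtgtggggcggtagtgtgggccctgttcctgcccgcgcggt
CA9: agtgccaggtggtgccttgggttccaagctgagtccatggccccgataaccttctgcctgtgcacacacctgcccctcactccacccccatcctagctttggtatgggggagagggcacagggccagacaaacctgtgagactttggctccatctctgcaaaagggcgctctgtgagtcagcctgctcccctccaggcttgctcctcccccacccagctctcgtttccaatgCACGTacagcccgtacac

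The authors normalized the read counts within each line, so levels were compared between genes of a line and not between the lines. To set genes side by side, the mean read count of the SCR libraries was divided by the median length of the basic protein-coding transcripts of the gene in GENCODE release 29. On this scale the glycolytic enzymes filled the top of the order, and other HIF targets filled the bottom. GAPDH was highest in both lines, with 31850 ± 1732 reads per kilobase (SD, n = 4) in HT29 and 55810 ± 4340 (SD, n = 6) in SW480. ANGPTL4, a secreted regulator of lipoprotein lipase, was lowest in both, with 6.78 ± 3.45 reads per kilobase (SD, n = 4) in HT29 and 10.6 ± 6.65 (SD, n = 6) in SW480. Low among the enzymes were ALDOC and ENO2, the aldolase and enolase isoforms typical of nervous tissue, at 64.6 and 74.1 reads per kilobase in HT29. In SW480, ALDOC stood at 69.2 and ENO2 at 399 reads per kilobase.

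Among neighbours in this order, the ranges over SCR libraries overlapped for 31 of 35 pairs in HT29 and 32 of 35 in SW480. The order is therefore one of broad classes rather than of single genes. SLC2A1, the glucose importer GLUT1, followed the abundant enzymes at 3217 ± 983 reads per kilobase (SD, n = 4) in HT29 and 5894 ± 921 (SD, n = 6) in SW480. SLC16A3, the lactate exporter MCT4, was much lower, at 265 ± 133 (SD, n = 4) in HT29 and 728.5 ± 81.3 (SD, n = 6) in SW480. CA9, a membrane carbonic anhydrase widely used as a hypoxia marker, was at 128.5 ± 56.0 reads per kilobase (SD, n = 4) in HT29 and near the bottom of the SW480 order at 12.04 ± 5.73 (SD, n = 6).

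**Figure D1:**
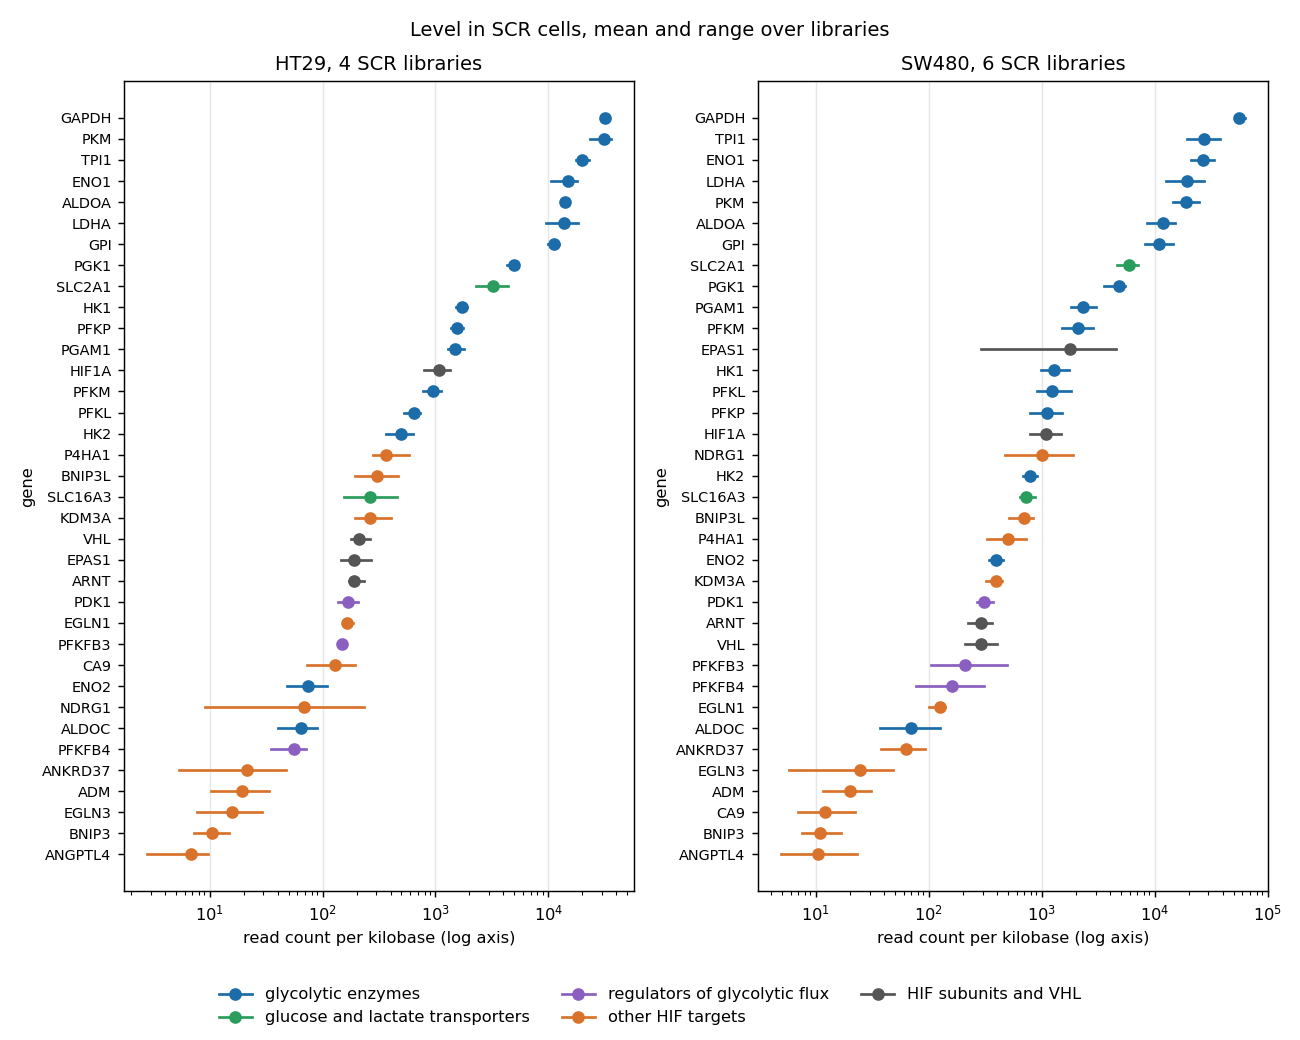
Read count per kilobase of transcript in SCR cells of HT29 (left, n = 4) and SW480 (right, n = 6), on a log axis, with 1 row per gene in order of the mean. Points are means and bars the range over libraries, coloured by role. GAPDH leads both orders and ANGPTL4 ends both.

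The SCR libraries differed among themselves far more for other HIF targets than for glycolytic enzymes. In HT29 the SD of the log2 read count over the 4 SCR libraries had a median of 0.64 for other HIF targets, 0.20 for glycolytic enzymes and 0.32 for all 13274 genes tested. In SW480 the medians were 0.50, 0.29 and 0.33 in the same order, the last over 15019 genes. The classes also differ in abundance, and the part of abundance in these spreads was not tested.

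In HT29, SCR replicate 1 carried much of this spread. It was the highest of the 4 SCR libraries for 9 of the 11 other HIF targets and the lowest for 7 of the 16 glycolytic enzymes. Replicate 4 was the lowest for 6 of these enzymes, and replicate 1 was also the highest for 3. The same counts over all genes were not taken. NDRG1, a stress-responsive gene induced by hypoxia, had read counts of 509, 53.6, 21.6 and 19.8 in SCR replicates 1 to 4. P4HA1, a collagen prolyl hydroxylase subunit, was at 1641 in SCR replicate 1 and at no more than 884 in the other SCR libraries. SLC16A3 was at 943 in it and between 317 and 490 in the rest. The same library stood apart over all genes, at -88.3 on the first principal component of HT29 against -18.7 to 21.1 for the other 7 libraries. Its estimated 14200000 reads were the fewest among the SCR libraries. Silenced siPOLR1D-3 replicate 2 had fewer, an estimated 13500000, and lay at 18.75 on this component. The part of depth was not tested. SCR replicate 1 was kept in the HT29 results below, and values without it are given beside several of them.

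The first principal component of SW480, with 42.0% of the variance, set its libraries apart on 2 sides. The first side held SCR replicates 1 to 3 and siPOLR1D-2 replicates 1 and 2, and the second held SCR replicates 4 to 6, siPOLR1D-2 replicate 3 and all 3 siPOLR1D-3 libraries. SCR replicate 1, at -14.1, lay nearest to the boundary. The labels do not name this split, which was defined after the data had been seen. It crossed the transfection groups but left no siPOLR1D-3 library on the first side. EPAS1, the alpha subunit HIF-2α, followed it most sharply of the members in the SCR libraries, with 10414 to 23580 reads on the first side and 1487 to 2243 on the second. NDRG1 was at 1878 to 4155 in the first 3 SCR libraries and at 1036 to 1146 in the others. PFKFB3, a kinase that makes the allosteric activator of phosphofructokinase, was at 404 to 1071 and 228 to 248. P4HA1 was at 1581 to 2030 on the first side and at 912 to 1071 on the second. The SCR libraries of the sides did not overlap for 15 of the 36 members, all higher on the first side. Of all 15019 genes tested 27.8% did not overlap, 2112 genes higher and 2059 lower on the first side. The sides were drawn from these same values, so part of this separation is built in. The 15 members were 7 of 16 glycolytic enzymes (HK1, PFKP, PFKM, ALDOA, ALDOC, ENO1 and PKM), 5 of 11 other HIF targets (ANKRD37, NDRG1, EGLN1, EGLN3 and P4HA1), PFKFB3, PFKFB4 and EPAS1.

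**Figure D2:**
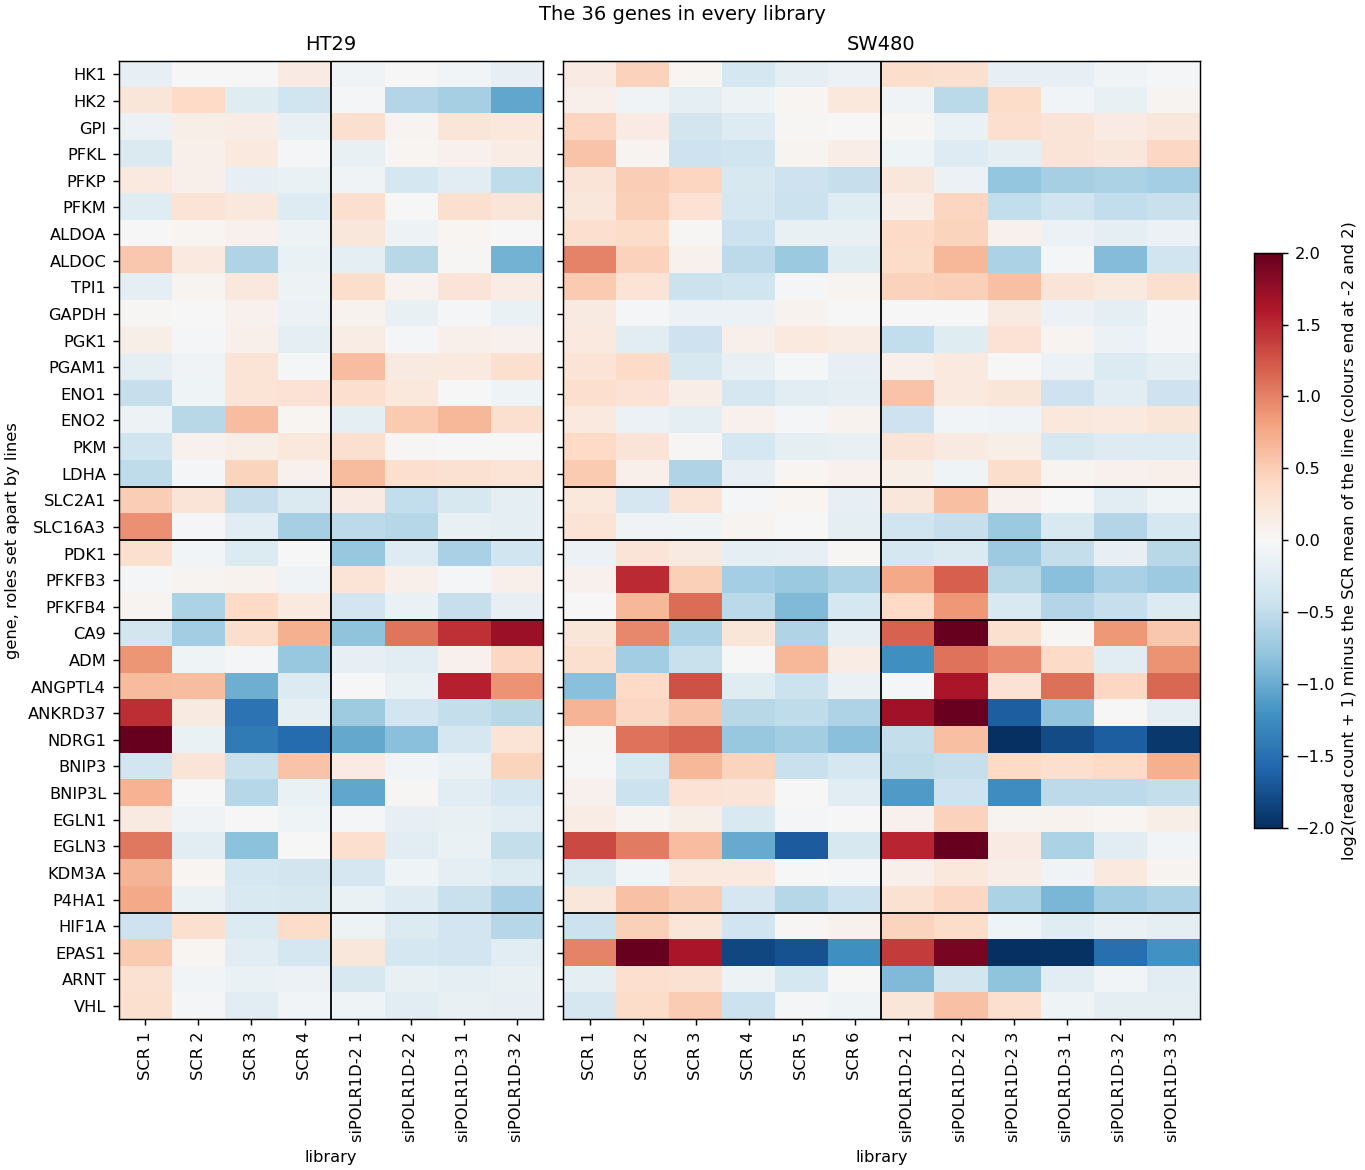
Each cell is the log2 read count, with a pseudocount of 1, of a gene (rows, by role) in a library (columns) minus the mean of the SCR libraries of its line, and colours end at -2 and 2. Most glycolytic enzymes stay pale in both lines. HT29 SCR replicate 1 is the highest SCR library for 9 of the 11 other HIF targets, and EPAS1 splits the SW480 libraries.

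Silencing left its mark on POLR1D itself in both lines. In SW480 POLR1D fell, with a log2 fold change of -1.04 (limma, adjusted p = 0.000991), and in HT29 its log2 fold change was -0.72 (limma, adjusted p = 0.355). In both, every silenced library was below every SCR library. Of 8 epithelial markers looked at, 6 were high enough to be tested in HT29 and 7 in SW480. Of 9 markers of other cell types, 2 were in HT29 and 4 in SW480, and 0 of these reached an adjusted p under 0.05. The epithelial markers EPCAM, KRT8 and KRT18 were abundant in all libraries, at 17162 reads or more. CDX1 was at 2.16 or less in all 20 libraries, and CDX2 was under 8 in HT29. KRT20 was under 12 in the SW480 SCR libraries and rose to between 20.7 and 94.6 in silenced cells (limma, log2 fold change 2.75, adjusted p = 0.00698).

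For each line, limma was fitted to the log2 values of silenced against SCR libraries. Benjamini-Hochberg adjustment ran across every gene tested, with the threshold at an adjusted p of 0.05. Fold changes are on the log2(read count + 1) scale, which understates changes of low genes. In SW480, 3 of the 36 members passed and all 3 fell, namely SLC16A3, PDK1 and BNIP3L. Over all 15019 genes 6.73% passed, 4.29% by a decrease and 2.44% by an increase, and 3 in 36 is close to this background. At an unadjusted p under 0.05 there were 7 members in SW480, where 23.2% of all genes reached it. In HT29, 0 of the 36 members passed, as did 0.0% of all 13274 genes, and 4 members reached an unadjusted p under 0.05, where 10.7% of all genes did. In these bulk samples, fewer cells that express a gene and less RNA per cell cannot be told apart.

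No glycolytic enzyme passed the threshold in either line. In SW480 all 16 had a log2 fold change between -0.5 and 0.5, which held for 77.8% of all genes tested, and their median was -0.02 against 0.01 over all genes. This median was too near 0 to carry a direction, as it was 0.05 with upper quartile scaling and 0.07 with quantile normalization. For 12 of them the whole 95% confidence interval, not adjusted for the number of genes, also lay within 0.5 of 0, and for all 16 it lay within 1. Of all 15019 genes, 4301 had an interval within 0.5 of 0 and 10441 within 1. In HT29 the median was 0.08 against 0.0002 over all genes, and the median without SCR replicate 1 was -0.00074. There 15 of 16 were between -0.5 and 0.5 (83.4% of all genes). The intervals of 8 lay within 0.5 of 0, as did those of 4068 of all 13274 genes.

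The abundant enzymes set the tight end of these intervals. GAPDH, the dehydrogenase in the middle of the pathway, had a log2 fold change of -0.03 in SW480 with an interval from -0.23 to 0.18, and in HT29 -0.06 with an interval from -0.30 to 0.18. PGK1, which makes the first ATP of the pathway, had -0.09 in SW480 with an interval from -0.40 to 0.22. LDHA, which turns pyruvate into lactate, had 0.10 in SW480 with an interval from -0.23 to 0.43. The genes at the edges were PFKP, the platelet type of phosphofructokinase, and TPI1, triosephosphate isomerase. PFKP had the lowest value of the enzymes in SW480 (-0.45, limma, adjusted p = 0.237) and TPI1 the highest (0.39, limma, adjusted p = 0.158). Within each side of the SW480 libraries the silenced PFKP values lay below all SCR values, at 2619 and 3320 against 3427 to 4029 on the first side and at 1662 to 1834 against 2078 to 2294 on the second. With the side as a covariate, PFKP was the 1 enzyme that passed the threshold. TPI1 passed it without SCR replicate 1 and among the second side alone. In HT29 the lowest was HK2, the inducible hexokinase that starts the pathway, at -0.58 (limma, adjusted p = 0.446).

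SLC16A3 fell in SW480. Its read counts in the 6 SCR libraries had a lowest value of 1322, a median of 1457 and a highest value of 1804. In the 6 silenced libraries they were 894, 1110 and 1204. Every silenced library, of either siRNA, was below every SCR library, which held for 2.88% of all genes tested, or 4.57% in either direction. The log2 fold change was -0.48 (SE 0.10, interval -0.70 to -0.25, limma, adjusted p = 0.0186), a ratio of means of 0.719, and the exact permutation test, 2-sided, gave p = 0.00216, the smallest that 6 against 6 libraries allow. The call held with each of the 12 libraries left out in turn, with adjusted p values between 0.0216 and 0.0419. It was lost with siPOLR1D-3 alone (limma, adjusted p = 0.0661) and with the first side alone (limma, adjusted p = 0.470). It was the 1 transporter that passed, SLC2A1 having a log2 fold change of 0.11 in SW480 with an interval from -0.20 to 0.41.

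In HT29, SLC16A3 had read counts of 943, 490, 433 and 317 in the SCR libraries. They were 348 and 339 with siPOLR1D-2 and 452 and 444 with siPOLR1D-3, all within the range of the SCR libraries. The log2 fold change was -0.35 (SE 0.29, limma, adjusted p = 0.646), and without SCR replicate 1 it was -0.05. On GRCh38 the gene spans chromosome 17 from 82228397 to 82261129 on the plus strand, and 1 gene on the opposite strand, CSNK1D, shares exonic sequence with it. Whether the quantification used strand is not given in the sources used here.

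PDK1 fell in SW480 as well. It encodes a kinase that switches off pyruvate dehydrogenase and so limits the burning of pyruvate in mitochondria. The SCR libraries had a lowest read count of 803, a median of 890 and a highest of 1103, and the silenced libraries had 552, 689 and 818. In 5 of 6 silenced libraries it was below every SCR library, and siPOLR1D-3 replicate 2, at 818, overlapped with the SCR range. The log2 fold change was -0.43 (SE 0.12, interval -0.69 to -0.17, limma, adjusted p = 0.0492), with p = 0.00433 in the exact permutation test, 2-sided. The adjusted p is just under the threshold, and with 1 library left out the call held in 2 of 12 cases, without SCR replicate 1 or without siPOLR1D-3 replicate 2. Without any of the others the adjusted p of PDK1 was between 0.0531 and 0.105, with log2 fold changes over all 12 cases between -0.48 and -0.37. The call of PDK1 was also lost with the filter at 10 in 4 libraries (limma, adjusted p = 0.0507), no filter (0.0802), upper quartile scaling (0.0639), quantile normalization (0.0540) and no trend (0.0674), and with either siRNA or either side alone (0.119 to 0.516).

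In HT29, PDK1 had read counts of 617, 474, 407 and 497 in SCR, 291 and 411 with siPOLR1D-2 and 315 and 374 with siPOLR1D-3. All but siPOLR1D-2 replicate 2 were below every SCR library. The log2 fold change was -0.52 (SE 0.17, interval -0.89 to -0.14), which did not pass (limma, adjusted p = 0.408), and the exact permutation test, 2-sided, gave p = 0.0571, where 4 against 4 libraries cannot go below 0.0286. The difference between the responses of the lines was 0.09 with an interval from -0.34 to 0.51. PDK1 lies on chromosome 2 from 172555373 to 172608669 on the plus strand, with 1 antisense gene over its exons. The other regulators, PFKFB3 and PFKFB4, had log2 fold changes of -0.14 and -0.06 in SW480 and 0.11 and -0.28 in HT29. PFKFB3 and PFKFB4 followed the side of the SW480 libraries, and their intervals there were wide, from -1.08 to 0.81 and from -0.80 to 0.68.

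BNIP3L, a mitochondrial outer membrane receptor for mitophagy, was the 1 of 11 other HIF targets that passed in SW480, by a decrease. Of the 11, 3 had a log2 fold change below 0. Its read counts were 582 at the lowest, 809 at the median and 960.5 at the highest in SCR, and 332, 546 and 585 in silenced cells. The lowest SCR library, replicate 2 at 582, and the highest silenced library, siPOLR1D-2 replicate 2 at 585, met, and the 5 other silenced libraries were below every SCR library. The log2 fold change was -0.72 (SE 0.18, interval -1.10 to -0.34, limma, adjusted p = 0.0300), and the exact permutation test, 2-sided, gave p = 0.00433. The call held in 7 of 12 cases with 1 library left out. It was lost without SCR replicates 3, 4 or 5 or without siPOLR1D-2 replicates 1 or 3, with adjusted p values of BNIP3L between 0.0518 and 0.0676. It was also lost with upper quartile scaling (limma, adjusted p = 0.0537), siPOLR1D-3 alone (0.0926) and the first side alone (0.463). In HT29 the read counts were 532, 328.5, 220.1 and 297 in SCR and 159, 333, 278.5 and 256 in silenced cells, which overlapped (log2 fold change -0.40, limma, adjusted p = 0.610). Without SCR replicate 1 the HT29 value of BNIP3L was -0.16. BNIP3L lies on chromosome 8 from 26382898 to 26505636, and 2 opposite-strand genes share exonic sequence with it.

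**Figure D3:**
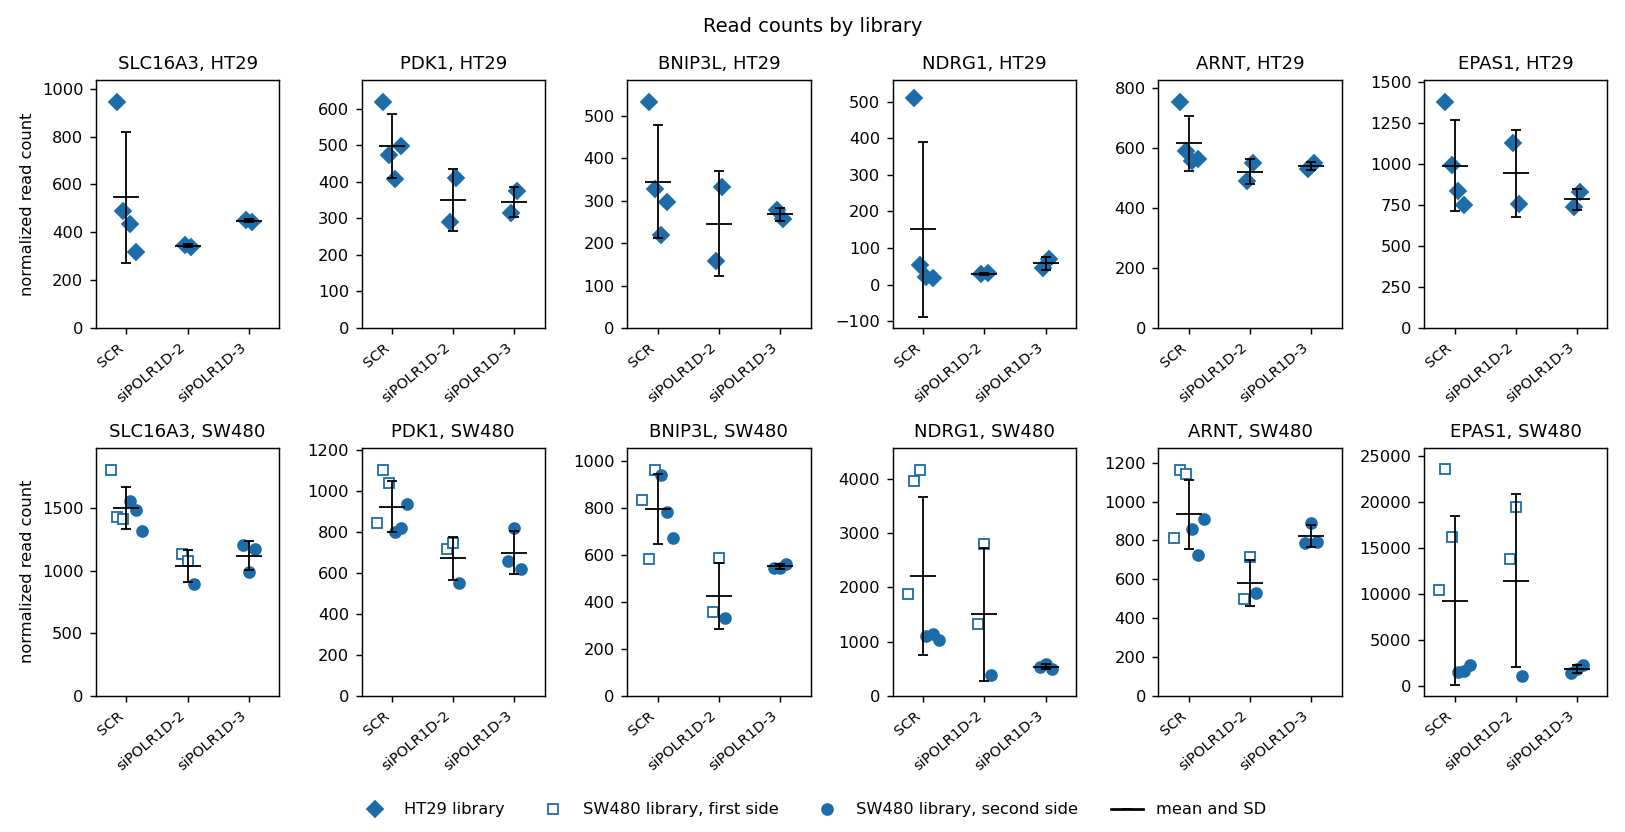
Normalized read counts of 6 members (columns) by library in HT29 (top) and SW480 (bottom), on linear axes, with the mean and SD of each transfection. SW480 libraries are drawn by side of the first principal component, open squares for the first and filled circles for the second. SLC16A3 is lower in all 6 silenced SW480 libraries than in any SCR library, while NDRG1 and EPAS1 follow the sides.

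The other 10 HIF targets did not pass in SW480 and went both ways. Over all 11 the median log2 fold change was 0.15 in SW480, with a range from -1.25 to 0.86, and -0.14 in HT29, with a range from -0.53 to 0.86. The HT29 median was 0.0013 without SCR replicate 1. In SW480, 6 of the 11 were between -0.5 and 0.5 (77.8% of all genes). The 95% intervals of 4 stayed within 1 of 0 (10441 of all 15019 genes), and the intervals of the rest reached past a 2-fold change. CA9 had positive values in both lines. In SW480 its read counts ran from 10.3 to 33.3 in SCR and from 16.8 to 80.0 in silenced cells, with a log2 fold change of 0.86 (interval 0.01 to 1.70, limma, adjusted p = 0.211). In HT29 CA9 had 138, 110.1, 228 and 293 in SCR, 101.5 and 375.5 with siPOLR1D-2 and 492 and 588 with siPOLR1D-3, a log2 fold change of 0.86 (limma, adjusted p = 0.553). The silenced libraries lay on both sides of the SCR range in HT29, and CA9 was the 1 member with an unadjusted p under 0.05 between the siRNAs there (log2 difference 1.46, limma, adjusted p = 0.9995). ANGPTL4 had 0.76 in SW480 and 0.58 in HT29, with adjusted p values of 0.268 and 0.670 from limma. The hydroxylases that mark HIF had narrow and wide intervals. EGLN1, the main oxygen sensor, had 0.14 in SW480 (interval -0.09 to 0.37), and EGLN3, which is itself induced by HIF, had 0.51 (interval -0.76 to 1.78). With the side as a covariate EGLN3 was the 1 member that passed by an increase, at 0.85 (limma, adjusted p = 0.0421), in a fit that called 13.3% of all genes. KDM3A, a histone demethylase, had 0.11 in SW480 with an interval from -0.10 to 0.31. BNIP3, the relative of BNIP3L, is uncertain, because rows named as its pseudogenes held a median of 20.7% of the reads of gene and pseudogenes together. For the 9 glycolytic enzymes with such rows the median share was 0.917% or less.

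NDRG1 had the most negative value of the members in SW480 and is named after its values were seen. The SCR libraries had a lowest read count of 1036, a median of 1512 and a highest of 4155, and the silenced libraries had 378, 563 and 2801. The groups overlapped, with a log2 fold change of -1.25 (SE 0.50, interval -2.33 to -0.17) that did not pass (limma, adjusted p = 0.153). Within the second side it was 1036 to 1146 in SCR and 378 to 588 in silenced cells, without overlap, and on the first side 1878 to 4155 against 1331 and 2801. With the side as a covariate the log2 fold change of NDRG1 was -0.96 (limma, adjusted p = 0.0122), and among the second side alone it was -1.15 (limma, adjusted p = 0.00188). NDRG1 also passed for siPOLR1D-3 alone, at -1.79 (limma, adjusted p = 0.0459), and without siPOLR1D-2 replicate 2, at -1.62 (limma, adjusted p = 0.0407). Of all genes 6.23% passed for siPOLR1D-3 alone and 6.63% without siPOLR1D-2 replicate 2. All siPOLR1D-3 libraries lay on the second side and siPOLR1D-2 replicate 2 on the first. In these settings silencing and side cannot be told apart. In HT29 the silenced libraries had 28.7 and 32.6 with siPOLR1D-2 and 46.6 and 71.7 with siPOLR1D-3. There the log2 fold change of -0.48 (limma, adjusted p = 0.844) became 0.55 without SCR replicate 1.

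Of the HIF subunits and VHL, 0 of 4 passed in either line. HIF1A, the oxygen-regulated alpha subunit, had read counts of 3078 at the lowest, 4316 at the median and 5805 at the highest in SW480 SCR libraries and 3525, 3847 and 5671 in silenced ones. The groups overlapped throughout, with a log2 fold change of 0.03 (interval -0.34 to 0.41, limma, adjusted p = 0.933). In HT29 HIF1A was 3074, 5092, 3400 and 5290 in SCR and 3806, 3404, 3146 and 2749 in silenced cells (log2 fold change -0.33, limma, adjusted p = 0.537). EPAS1 could not be measured tightly in SW480. Its silenced libraries ran from 1017 to 19495, with a median of 2051, against a SCR median of 6329, and its log2 fold change of -0.63 had an interval from -2.54 to 1.28 (limma, adjusted p = 0.719). Within the sides the EPAS1 means of SCR and silenced libraries were 16740 and 16670 on the first and 1765 and 1613 on the second. In HT29 EPAS1 was 1379, 994, 837 and 751 in SCR and 1130, 758, 740 and 830 in silenced cells (log2 fold change -0.18, limma, adjusted p = 0.743), and without SCR replicate 1 the value was -0.0056.

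ARNT, the constitutive partner of both alpha subunits, was the 1 member whose silenced and SCR libraries did not overlap in HT29. Of all genes tested there 6.89% did not overlap, 4.17% by lower values in silenced cells. Its read counts were 753, 591, 557 and 565 in SCR and 492, 552, 532 and 552 in silenced cells, so that the gap between the groups was small. The log2 fold change was -0.20 (SE 0.13, limma, adjusted p = 0.561), with p = 0.0286 in the exact permutation test, 2-sided, the smallest that the design allows. Without SCR replicate 1 the log2 fold change of ARNT was -0.10. In SW480 ARNT ran from 723 to 1161 in SCR, with a median of 885, and from 497 to 888 in silenced cells, with a median of 751. Here 3 of 6 silenced libraries, those of siPOLR1D-2, were below every SCR library, and the log2 fold change was -0.42 (interval -0.78 to -0.06, limma, adjusted p = 0.148). VHL, the E3 ligase subunit that recognises hydroxylated HIF, had log2 fold changes of 0.12 in SW480 (interval -0.28 to 0.51, limma, adjusted p = 0.743) and -0.16 in HT29 (interval -0.46 to 0.14, limma, adjusted p = 0.651). Its SW480 read counts were 675 to 1293 in SCR and 794 to 1359 in silenced cells, and in HT29 838, 648, 574 and 643 in SCR and 628, 569, 601 and 600.1 in silenced cells, with overlap in both. Without SCR replicate 1 the HT29 value of VHL was -0.05.

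**Figure D4:**
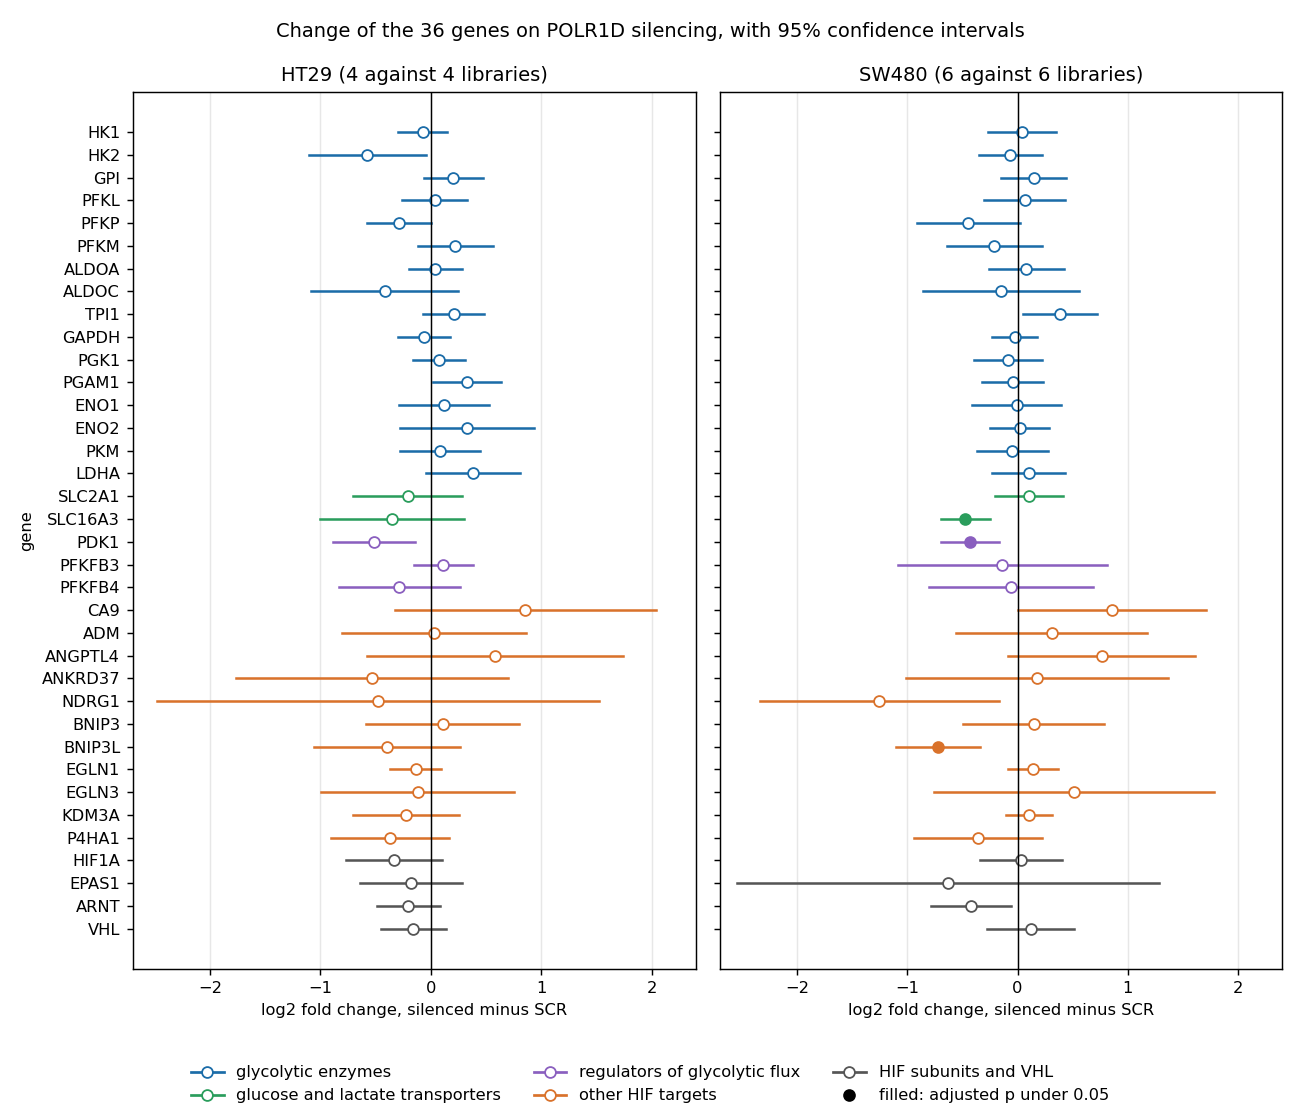
Log2 fold change (silenced minus SCR, points) with its 95% confidence interval (bars) for the 36 members in HT29 (left, 4 against 4 libraries) and SW480 (right, 6 against 6), coloured by role. Filled points passed the threshold, which were SLC16A3, PDK1 and BNIP3L in SW480. The interval lies within 0.5 of 0 for 8 of 16 enzymes in HT29 and 12 of 16 in SW480, and for 1 and 2 of 11 other HIF targets. Over all genes tested it does so for 4068 of 13274 in HT29 and 4301 of 15019 in SW480.

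The responses of the lines were set against each other in a single fit of all 20 libraries. None of the 36 members passed, at an unadjusted p under 0.05 there were also 0 (8.58% of all genes), and 0.0393% of the 12724 genes tested passed. The member with the smallest p was HK2, with a difference of 0.51 (interval -0.04 to 1.06, limma, adjusted p = 0.618). For SLC16A3 the difference was -0.12 (interval -0.71 to 0.47) and for BNIP3L -0.32 (interval -1.03 to 0.39), so the calls in SW480 are not shown to be particular to that line.

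The siRNAs were compared within each line. In SW480, 0 of the 36 members passed, where 3.32% of all genes did, and 11 reached an unadjusted p under 0.05, where 21.8% of all genes did. ENO1, the ubiquitous enolase, had the smallest p among them, at -0.70 for siPOLR1D-3 minus siPOLR1D-2 (interval -1.11 to -0.28, limma, adjusted p = 0.0643). SLC16A3 differed by 0.11 (interval -0.19 to 0.42), PDK1 by 0.06 (interval -0.31 to 0.43) and BNIP3L by 0.43 (interval -0.07 to 0.92). All siPOLR1D-3 libraries lay on the second side and 2 of 3 siPOLR1D-2 libraries on the first, so the siRNA and the side cannot be told apart for most of these values. In HT29, 0 members passed, as did 0.0% of all genes, and 1 member, CA9, reached an unadjusted p under 0.05, where 1.56% of all genes did.

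Further genes of the same pathways were read from lists of 35 glycolysis and pyruvate genes, 35 HIF targets and 10 HIF pathway genes. In SW480, 13 of the 71 that could be tested passed, 5 higher and 8 lower, and in HT29 0 of 67. Over all genes tested in SW480 6.73% passed, 2.44% higher and 4.29% lower, and the lists were chosen with earlier results of these data known. Among 29 glycolysis and pyruvate genes 2 rose and 3 fell. PCK2, the mitochondrial enzyme that makes phosphoenolpyruvate, fell most clearly, from 1209 ± 302.5 (SD, n = 6) to 539 ± 163 (SD, n = 6) with a log2 fold change of -1.18 (limma, adjusted p = 0.00657). HKDC1, a hexokinase family member, fell by 1.38 on the log2 scale (limma, adjusted p = 0.0117). PGM2 and PGM1, both named as phosphoglucomutases, went opposite ways, with PGM2 at -0.47 (limma, adjusted p = 0.0144) and PGM1 at 0.54 (limma, adjusted p = 0.0359). PGAM5, a mitochondrial phosphatase named for its likeness to phosphoglycerate mutase, rose by 0.72 on the same scale (limma, adjusted p = 0.0391).

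Among 33 further HIF targets 1 rose and 5 fell in SW480. WSB1, an E3 ligase subunit, fell by 0.70 (limma, adjusted p = 0.0155), STC2, a secreted glycoprotein, fell by 1.20 (limma, adjusted p = 0.0178), and INSIG2, a brake on sterol synthesis, fell by 0.86 (limma, adjusted p = 0.0269). VEGFA, the angiogenic growth factor, had a log2 fold change of -1.05 (limma, adjusted p = 0.0192). VEGFA and INSIG2 were among the genes that the study chose on these samples, so their direction is not independent evidence. PLOD1, a collagen lysyl hydroxylase, rose by 0.50 (limma, adjusted p = 0.0319). Of 9 HIF pathway genes, 2 rose, EGLN2, the third prolyl hydroxylase, by 0.48 (limma, adjusted p = 0.0442) and the coactivator CREBBP by 0.40 (limma, adjusted p = 0.0375). Over the 71 genes the median log2 fold change was -0.06 against 0.01 over all genes tested.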

How the data were processed

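RNA of 20 libraries was captured for coding transcripts and sequenced as paired-end reads. Per the submitters' processing notes, FastQC 0.11.5, kallisto 0.44.0 and DESeq2 1.24.0 were used with build hg38, and the index and annotation are not given in the sources used here. The authors deposited 1 signal value per gene and library, a read count normalized with DESeq2 within each line. The values are not whole, so no test for counts was run. Rows sharing a name were summed. Genes that reached 10 in as many libraries as the smaller group or more were tested with limma 3.58.1 (R 4.3.3) on the log2 scale (pseudocount 1, mean-variance trend), each line alone and both siRNAs pooled, and single genes by exact permutation. The fits were tested on simulated data. Reads, estimated by taking the commonest low value of a library as 1 read, were 13500000 to 27600000 per library. They give no interval for a single gene. Replicates differed by more than counting noise, so none was merged. The members and lists were chosen with earlier results of these data known. Described in full were members called or not overlapping in a line, members called between lines or siRNAs, HIF1A, EPAS1, ARNT and VHL, and of the further lists up to 12 called genes. BHLHE41, the 13th, is left out. Alternatives were other pseudocounts, filters, scalings, row choices and variance settings, each siRNA alone, the side of the SW480 libraries, a replicate block and each library left out. The unadjusted threshold was added after the data had been seen.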

Additional observations from a re-analysis of the deposited data

Results flagged for a closer look

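In 144 groups of 4 or 6 libraries, 8 held a library that lay farther from the rest than Dixon's 95% limit, where chance gives about 1 in 20. In HT29, SCR replicate 1 was the highest for 3 members, with read counts of 509 for NDRG1 (nearest other SCR library 53.6), 1641 for P4HA1 (884) and 753 for ARNT (591). In silenced HT29 cells, siPOLR1D-2 replicate 1 was the highest for PKM, the pyruvate kinase at the end of glycolysis, at 88636 (nearest 72034) and for LDHA at 38163 (nearest 30928). In SW480, SCR replicate 2 was the highest for PFKFB3 at 1071 (nearest 535). siPOLR1D-2 replicate 2 was the highest for CA9 at 80.0 (nearest 38.9) and for EGLN1 at 1217 (nearest 962). The part of depth or handling in these values was not tested.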

How the results depend on the processing

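In HT29 0 members passed in each of the 20 alternatives with an adjusted p, and an unadjusted p under 0.05 was met by 4. In SW480 the 3 members that passed became 1 with upper quartile scaling (SLC16A3), 1 with siPOLR1D-3 alone (NDRG1), 0 with the first side alone, 6 with the side as a covariate (EGLN3 higher, BNIP3L, NDRG1, PDK1, PFKP and SLC16A3 lower), 7 at an unadjusted p and 1 to 4 with each library left out, where all genes called ran from 540 to 1281. PDK1 alone was lost, leaving 2, with the filter at 10 in 4 libraries, no filter, quantile normalization, no trend and siPOLR1D-2 alone. Without a filter 666 genes were called, 824 without trend, 624 with siPOLR1D-2 alone, 1993 with the side as a covariate, 1939 with the second side alone and 0 with the first side alone, against 1011. At most 1 glycolytic enzyme passed in any of these. The count of members that differed between the siRNAs in SW480 was 0 to 1 with each library left out (ENO1 without SCR replicate 1, ANKRD37 without siPOLR1D-2 replicate 3), and between the lines it was 0 throughout. The HT29 median of the glycolytic enzymes, 0.08, was 0.17 with quantile normalization and ran from -0.00074 to 0.11 with each library left out, lowest without SCR replicate 1. The causes were not tested.

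Libraries of equal replicate number did not deviate together on average, the mean correlation of their deviations being -0.04 in HT29 and -0.02 in SW480. Each siRNA had 2 libraries in HT29, and their deviations from the group mean mirror each other. This limits what the HT29 average can show about pairing. In SW480 single pairs ran from -0.60 to 0.39 with equal numbers and from -0.59 to 0.61 with unequal ones. The numbers were not taken as pairs. With the replicate number as a block, 0 members passed in SW480 (0 of all genes) and 0 in HT29 (735 of all genes). HT29 SCR replicates 3 and 4 and SW480 SCR replicates 4 to 6 share their number with no silenced library. With this block they are fitted exactly and drop out of the comparison. The HT29 result then rests on SCR replicates 1 and 2. The SW480 result rests on SCR replicates 1 to 3, all on the first side. At an unadjusted p under 0.05 there were then 9 members in SW480, where 3003 of 15019 genes reached it. In HT29 there were 15 members, where 3551 of 13274 genes reached it. With this block the HT29 median of the glycolytic enzymes was 0.16, and the counts between the lines and the siRNAs remained 0. Across the 8 genes fitted singly no called value changed sign, and values that passed in neither setting did so 12 times (HIF1A, EPAS1 and VHL in SW480, NDRG1 in HT29). The median of the glycolytic enzymes changed sign in 9 of 28 alternatives in SW480, over a range of -0.10 to 0.09, and in 1 of 20 in HT29, and that of other HIF targets in 0 of 28 and 1 of 20, in both HT29 cases without SCR replicate 1. Depth is known only as an estimate per library, so low members such as ANGPTL4, BNIP3 and CA9 carry an unknown counting error.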
